A study of Homo sapiens with 9 samples.

Results

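The S100 calcium-binding proteins described here are 10 genes, S100A2, S100A3, S100A4, S100A6, S100A10, S100A11, S100A13, S100A14, S100A16 and S100P, taken by symbol from count tables of 21619 genes. The data come from xenografts of EGFP-L10a+ MDA-MB-231 cells, an established human triple-negative breast cancer line whose ribosomal protein L10a carries a green fluorescent tag. Tagged cells were injected into the mouse mammary fat pad either mixed at a 1:1 ratio with mesenchymal stem cells from human bone marrow (MSC), or without MSC, and tumours were taken after 3 weeks. There were 5 tumours with MSC (tumours 1, 6, 7, 10 and 15) and 4 without MSC (tumours 9, 11, 12 and 13), each from a different mouse; every tumour carried the same tagged line, and the MSC are not described as tagged. The mouse strain, the age of the animals and whether the tagged line is a clone are not stated in the labels.

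Polysomes were captured from whole tumour lysate by antibody to the tag, in a method called translating ribosome affinity purification, and their polyadenylated RNA was sequenced. The values thus stand for RNA on tagged ribosomes, with whatever else was carried over, and since total tumour RNA was not used here, RNA abundance and ribosome association cannot be told apart. In these bulk samples, fewer cells of a type and less RNA per cell cannot be told apart either. Gene counts ran from 29749909 to 50639082 per library with MSC and from 24616792 to 65275226 without. Of 4 genes that the line is known to express, VIM stood at 6918 to 12520 CPM (read counts scaled to 1 library total) with MSC and at 6742 to 8066 CPM without, and the other 3, EGFR, CD44 and AXL, rose with MSC, by log2 fold changes of 0.90, 0.61 and 0.53 (adjusted p = 0.00498, 0.00865 and 0.0137 in edgeR's quasi-likelihood test with Benjamini-Hochberg adjustment). Of 5 genes known to be low in it, CDH1, ESR1 and PGR were at no more than 0.208 CPM in any library, while ERBB2 averaged 28.0 CPM with MSC and 22.6 CPM without, and EPCAM 10.6 CPM with MSC and 10.1 CPM without. Of the marker lists of other cells, the summed levels of 2 did not overlap between the groups, while those of the macrophage, adipocyte, epidermis and neutrophil lists did. Tumour 15 stood apart for the adipocyte list, at 3.91 CPM, against at most 0.538 CPM in the other tumours with MSC and 0.6865 CPM without. It also had 18.9 CPM of the fibroblast marker DCN, against at most 0.207 CPM in any other library. The sum of 10 fibroblast or MSC markers was 69.65 to 192.5 CPM with MSC, highest in tumour 15, and 49.4 to 69.44 CPM without. The gap between the groups was thus narrow, and without tumour 15 the highest sum with MSC was 96.9 CPM. Most of the sum was COL6A3 and COL1A1, which overlapped between the groups and did not pass the test. The sum of 6 endothelial markers was 5.02 to 7.26 CPM with MSC and 8.33 to 10.8 CPM without, most of it PECAM1.

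S100 proteins are small proteins, found in vertebrates, that mostly act as dimers and carry a pair of EF-hands, helix-loop-helix units that bind calcium. Calcium opens a surface through which they bind other proteins, among them annexins, non-muscle myosin, p53 and, for members that leave the cell, receptors such as RAGE. In breast cancer cells several members have been studied for their part in motility, invasion and metastasis.

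The second EF-hand loop, the canonical calcium site of these proteins, is shown for each member because it differs among the members described below. The 12 codons of the loop were read from the coding DNA of the principal transcript in GENCODE release 29, 5′ to 3′, with capitals for the codons at loop positions 1, 3, 5 and 12, which in a canonical loop encode residues that hold calcium.
S100A4: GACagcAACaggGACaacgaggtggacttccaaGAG
S100A6: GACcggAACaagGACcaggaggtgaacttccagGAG
S100A13: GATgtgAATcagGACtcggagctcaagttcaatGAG
S100A10: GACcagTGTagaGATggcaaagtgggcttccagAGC
S100A11: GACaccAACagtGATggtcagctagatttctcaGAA
S100A2: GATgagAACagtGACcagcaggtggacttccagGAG
S100A14: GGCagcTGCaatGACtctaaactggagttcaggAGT
S100A3: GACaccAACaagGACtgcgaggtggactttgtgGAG
S100A16: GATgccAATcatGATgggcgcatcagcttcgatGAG
S100P: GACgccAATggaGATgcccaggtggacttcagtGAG
In 8 of the 10 members the codons at positions 1, 3 and 5 encode aspartate or asparagine and the codon at position 12 encodes glutamate. In S100A10, known as a member that stays in its active shape without calcium, and in S100A14, they do not. Over the whole coding sequence S100A2 was the member most like S100A4, at 70.8% of aligned bases, and S100A11 the least like it, at 47.0%.

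In tumours with MSC, S100A4, a member best known for cell motility and metastasis, stood at 0.699 times its level in tumours without MSC. S100A13, which takes part in the release of growth factors that lack a signal peptide, stood at 0.749 times its level without MSC. No member rose, and the differences of the other 8 members did not pass the test. All 10 members passed the filter on low counts, and 2 of 10 fell with an adjusted p under 0.05 in edgeR's quasi-likelihood test with Benjamini-Hochberg adjustment over all 13458 genes tested, where 3.60% of genes fell, 4.18% rose and 7.78% changed in either direction. For the count of 0 that rose, 1 member was higher and 3 were lower at an unadjusted p under 0.05, and DESeq2 and limma-voom each also called 0 higher and 2 lower. The log2 fold change, with MSC minus without, was negative in 8 members and positive in 2, with a median of -0.10 beside 0.0085 over all genes tested. Because the genes were chosen with results of these data known, these counts are a description.

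**Figure D1:**
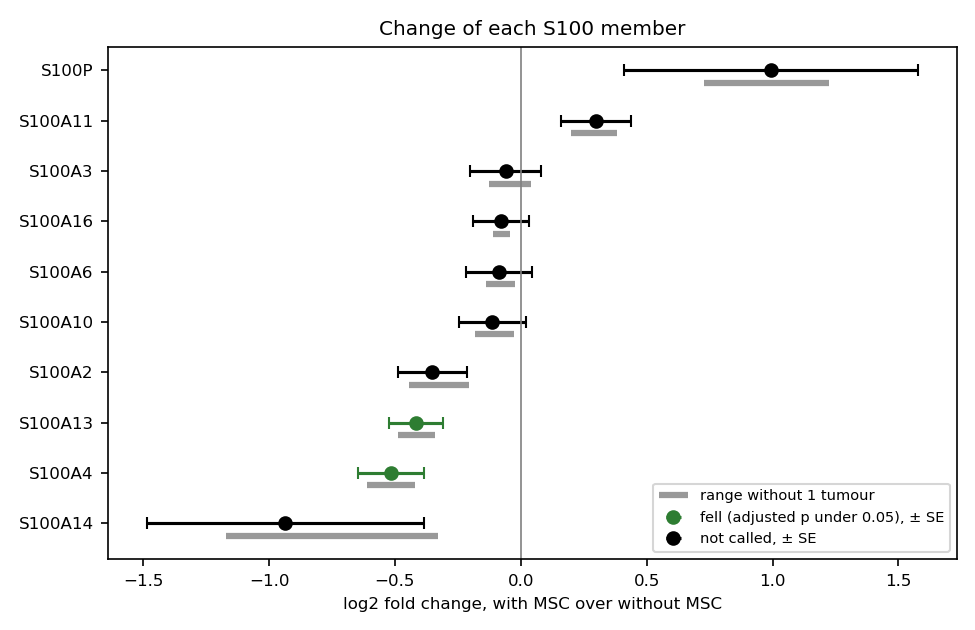
Log2 fold change of each S100 member, with MSC over without MSC (horizontal axis), with its standard error; grey bars show the range when each tumour in turn is left out. S100A4 at -0.52 and S100A13 at -0.42 are the members that passed the test, and the low-count members S100A14 and S100P have the widest errors.

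S100A4 binds non-muscle myosin IIA and is also called fibroblast-specific protein. Its level was 1461, 1462, 1481, 1276 and 1296 CPM in tumours 1, 6, 7, 10 and 15 with MSC, against 1598, 2359, 2281 and 1743 CPM in tumours 9, 11, 12 and 13 without MSC. Every tumour with MSC was below every tumour without, and tumours 11 and 12 stood highest. S100A4 averaged 1395 ± 101 CPM with MSC (SD, n = 5) and 1995 ± 381 CPM without (SD, n = 4), a log2 fold change of -0.52 ± 0.13 (SE) with an adjusted p of 0.0242 in edgeR's quasi-likelihood test with Benjamini-Hochberg adjustment. The call was lost, in the same test, on leaving out tumour 1 (adjusted p = 0.0591), 10 (0.0721), 11 (0.0867) or 12 (0.117), while the log2 fold change stayed between -0.61 and -0.42. Groups that do not overlap, with MSC lower, were found for 2 of the 10 members and for 4.87% of all genes tested, and with MSC higher for none of the members and 5.13% of all genes.

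Because S100A4 is also a marker of fibroblasts and macrophages, it was set beside the marker lists of those cells. The host cells of these tumours are mouse cells, while reads were placed on the human genome hg19. The treatment of mouse reads is not stated, so these lists need not measure host macrophages, fibroblasts or endothelial cells. Of the 10 fibroblast or MSC markers, 6 were tested, 1 rose (COL1A2, log2 fold change 2.41, adjusted p = 0.0104 in edgeR's quasi-likelihood test with Benjamini-Hochberg adjustment), 0 fell and none was at 0 in every library. Tumour 15, with the highest sum of fibroblast markers, had 1296 CPM of S100A4, the second lowest of the 9 values. That rank rests on the scaling between libraries, because its TMM scaling factor was 1.135, against 0.937 to 1.041 in the other libraries. A factor above 1 lowers every CPM of a library. Per 1000 S100A6 reads, a measure without such scaling, tumour 15 had 183 S100A4 reads, within the 169 to 197 of the tumours with MSC. Without tumour 15 the log2 fold change of S100A4 was -0.49. The sum of 7 macrophage markers was 4.99 to 9.01 CPM with MSC and 5.92 to 8.17 CPM without, with overlapping ranges. Of the 6 endothelial markers, 2 were tested and 1, PECAM1, fell to 4.43 ± 0.95 CPM with MSC, against 8.50 ± 1.21 CPM without (SD, n = 5 and n = 4; adjusted p = 0.00745 in the same test); CDH5, TEK, VWF and CLDN5 did not pass the filter, none was at 0 in every library, and their means were higher with MSC, as for TEK at 0.271 CPM with MSC and 0.125 CPM without. The part of these cell types in the S100A4 and S100A13 values was not tested.

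S100A6, or calcyclin, is a growth-regulated member that binds the calcyclin-binding protein CACYBP. It ranked 5 of 13458 tested genes by mean CPM, with 7884, 8580, 7537, 7567 and 7091 CPM in tumours 1, 6, 7, 10 and 15 with MSC, against 7313, 9166, 8159 and 8205 CPM in tumours 9, 11, 12 and 13 without. The groups overlapped, with the highest CPM in tumour 11 and the lowest in tumour 15, where the TMM scaling factor of 1.135 lowers the values. Its log2 fold change was -0.087 ± 0.13 (SE), with an adjusted p of 0.730 in edgeR's quasi-likelihood test with Benjamini-Hochberg adjustment. S100A6 gave 56.8 to 61.2% of the reads of the 10 members with MSC and 55.4 to 58.5% without.

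A ratio to S100A6 within each library needs no scaling between libraries. S100A4 had 185, 170.4, 197, 169 and 183 reads per 1000 S100A6 reads in tumours 1, 6, 7, 10 and 15 with MSC, against 219, 257, 279.6 and 213 in tumours 9, 11, 12 and 13 without. S100A13 had 44.2, 41.4, 46.8, 46.9 and 46.5 reads per 1000 S100A6 reads in the same tumours with MSC, against 58.8, 58.1, 61.6 and 48.2 without. For both genes every library with MSC was below every library without, though tumour 13 came close for S100A13. Since S100A6 differed little between the groups, this largely repeats their separation in CPM and is not separate evidence. The share of all genes that separate by such a ratio was not computed. S100A11 had 95.9 to 138.5 reads per 1000 S100A6 reads with MSC and 67.8 to 115 without, and S100A10 had 143 to 205 with MSC and 147 to 219 without, so these ranges overlapped.

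**Figure D2:**
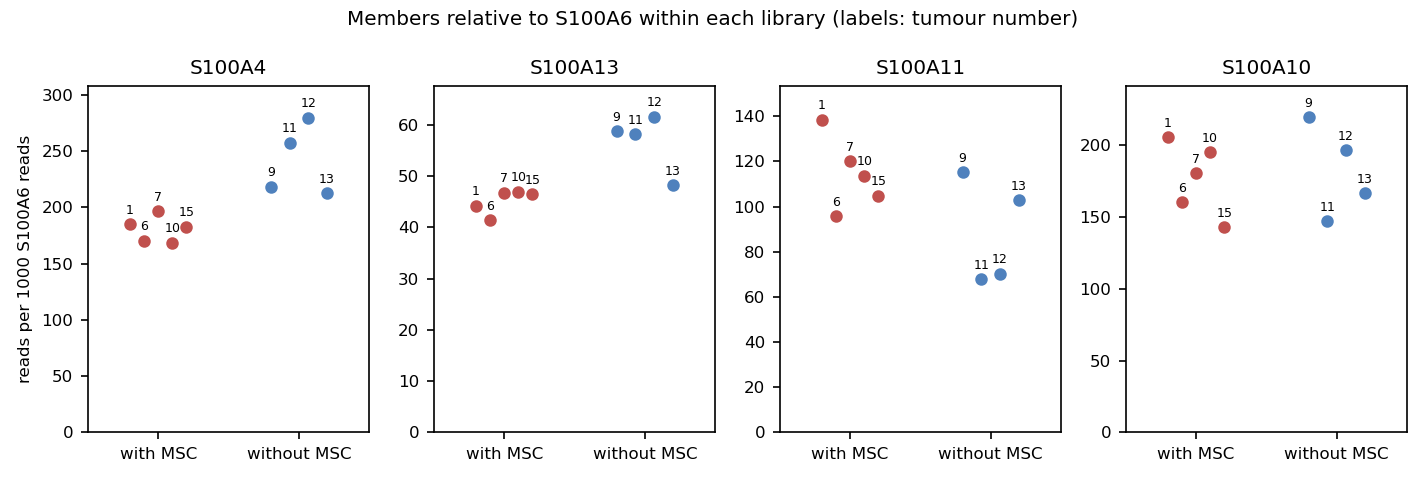
Reads of S100A4, S100A13, S100A11 and S100A10 per 1000 S100A6 reads (vertical axes) in each tumour with MSC and without MSC, labelled by tumour number. S100A4 and S100A13, which did not overlap in CPM either, show no overlap between the groups, with S100A4 at 169 to 197 with MSC and 213 to 279.6 without.

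S100A13 is known to be exported with fibroblast growth factor 1 and interleukin-1 alpha, proteins that leave the cell by a route outside the secretory pathway. Its level was 349, 356, 352, 355 and 329.6 CPM in tumours 1, 6, 7, 10 and 15 with MSC, against 429.9, 533, 502 and 395 CPM in tumours 9, 11, 12 and 13 without MSC. The 5 tumours with MSC lay close together and all below those without, among which tumour 11 was highest and tumour 13 lowest. S100A13 averaged 348 ± 10.8 CPM with MSC (SD, n = 5) and 465 ± 63.5 CPM without (SD, n = 4), a log2 fold change of -0.42 ± 0.11 (SE) with an adjusted p of 0.0244 in edgeR's quasi-likelihood test with Benjamini-Hochberg adjustment. The call was lost, in the same test, without tumour 1 (adjusted p = 0.0655), 7 (0.0515), 10 (0.0570), 11 (0.0821) or 12 (0.105), with log2 fold changes of -0.49 to -0.34. In RefSeq annotation S100A13 overlaps S100A1 and CHTOP, and S100A4 overlaps S100A5; whether reads were counted by strand is not stated, so reads of overlapping genes may be lost or misassigned.

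The S100 cluster on chromosome 1 holds S100A4 and S100A13 and, between them, S100A3, S100A2, S100A16 and S100A14, which did not pass the test. Promoters of S100A4 and S100A13, which fell, are shown, with that of S100A11, which was higher with MSC but did not pass the test. Each is 300 bases from RefSeq on GRCh38.p14, minus strand, from 250 bases before to 50 after a transcription start, 5′ to 3′: S100A4 at chr1:153545757-153546056, S100A13 at chr1:153634312-153634611 and chr1:153627456-153627755, and S100A11 at chr1:152036955-152037254. Capitals mark matches, searched on both strands, to 4 motifs. The TATA box was searched as TATAAA and the GC box as GGGCGG. The hypoxia response core was searched as ACGTG, with GCGTG as its other form. The AP-1 site was searched as TGACTCA, with its other form TGAGTCA.
S100A4: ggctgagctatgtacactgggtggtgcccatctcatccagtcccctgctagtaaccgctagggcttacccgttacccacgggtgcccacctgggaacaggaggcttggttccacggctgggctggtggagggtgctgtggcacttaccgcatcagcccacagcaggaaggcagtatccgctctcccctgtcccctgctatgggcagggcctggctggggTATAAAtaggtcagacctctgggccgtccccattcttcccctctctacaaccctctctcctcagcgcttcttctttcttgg
S100A13 upstream start: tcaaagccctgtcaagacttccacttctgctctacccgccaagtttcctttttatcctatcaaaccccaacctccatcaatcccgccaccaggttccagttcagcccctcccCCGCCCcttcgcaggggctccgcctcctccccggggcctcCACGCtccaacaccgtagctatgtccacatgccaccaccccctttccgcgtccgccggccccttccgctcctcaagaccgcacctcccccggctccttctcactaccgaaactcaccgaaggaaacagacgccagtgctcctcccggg
S100A13 downstream start: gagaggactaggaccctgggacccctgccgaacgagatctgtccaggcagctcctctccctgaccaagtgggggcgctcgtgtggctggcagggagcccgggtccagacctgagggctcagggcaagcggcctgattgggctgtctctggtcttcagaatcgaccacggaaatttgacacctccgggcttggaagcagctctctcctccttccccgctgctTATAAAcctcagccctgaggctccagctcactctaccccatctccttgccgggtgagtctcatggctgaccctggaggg
S100A11: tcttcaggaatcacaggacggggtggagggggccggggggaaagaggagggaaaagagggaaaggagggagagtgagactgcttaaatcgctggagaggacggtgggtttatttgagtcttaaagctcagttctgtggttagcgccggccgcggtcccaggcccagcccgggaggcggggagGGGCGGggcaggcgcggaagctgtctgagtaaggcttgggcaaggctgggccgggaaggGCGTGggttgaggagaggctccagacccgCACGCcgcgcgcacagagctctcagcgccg
No match to one motif overlapped a match to another. S100A4 held 1 TATA box match and 0 of the other motifs. Of the S100A13 starts, the upstream one held 1 GC box and 1 hypoxia response core, and the downstream one held 1 TATA box match. Another annotated start overlaps the downstream one and is not printed; it held 1 hypoxia response core. S100A11 held 1 GC box and 2 hypoxia response cores. The 10 members had 14 annotated starts. A TATA box match stood in 3 of these 14 promoters, those of S100A4, S100A13 and S100P, and in 11.5% of 35114 promoters of that length. The GC box stood in 6 of the 14 and in 45.0% of all promoters, the hypoxia response core in 7 of the 14 and in 48.4%, and the AP-1 site in 2 of the 14 and in 4.95%. These matches describe the letters in the window and not binding.

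S100A10 forms a tetramer with annexin A2 at the cell surface, where it serves as a plasminogen receptor. It had 1619, 1375, 1360, 1475 and 1013 CPM in tumours 1, 6, 7, 10 and 15 with MSC, against 1605, 1348, 1603 and 1367 CPM in tumours 9, 11, 12 and 13 without. The groups overlapped, and tumour 15 stood lowest. The log2 change was -0.11 ± 0.13 (SE), with an adjusted p of 0.645 in edgeR's quasi-likelihood test with Benjamini-Hochberg adjustment. ANXA2 itself averaged 1835 ± 191 CPM with MSC (SD, n = 5) and 1923 ± 265 CPM without (SD, n = 4), a log2 fold change of -0.067 ± 0.13 (SE; adjusted p = 0.788 in the same test). The log2 ratio of S100A10 to ANXA2 was -0.43 ± 0.24 with MSC (SD, n = 5) and -0.37 ± 0.24 without (SD, n = 4). The difference of -0.062 had a two-sided exact permutation p of 0.683, where 126 arrangements allow no p under 0.00794.

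S100A11, or calgizzarin, binds annexin A1 and is known for roles in growth control and membrane repair. Its level was 1092, 822, 906, 860.2 and 744 CPM in tumours 1, 6, 7, 10 and 15 with MSC, against 843, 621, 573 and 842 CPM in tumours 9, 11, 12 and 13 without. Tumours 11 and 12, the highest for S100A4, were the lowest here, while tumours 9 and 13 lay among the tumours with MSC. S100A11 averaged 885 ± 130.2 CPM with MSC (SD, n = 5) and 719.9 ± 143 CPM without (SD, n = 4). The log2 fold change of 0.30 ± 0.14 (SE) had an adjusted p of 0.194 in edgeR's quasi-likelihood test with Benjamini-Hochberg adjustment, and it was positive in all 9 fits that left out 1 tumour, from 0.20 to 0.38.

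**Figure D3:**
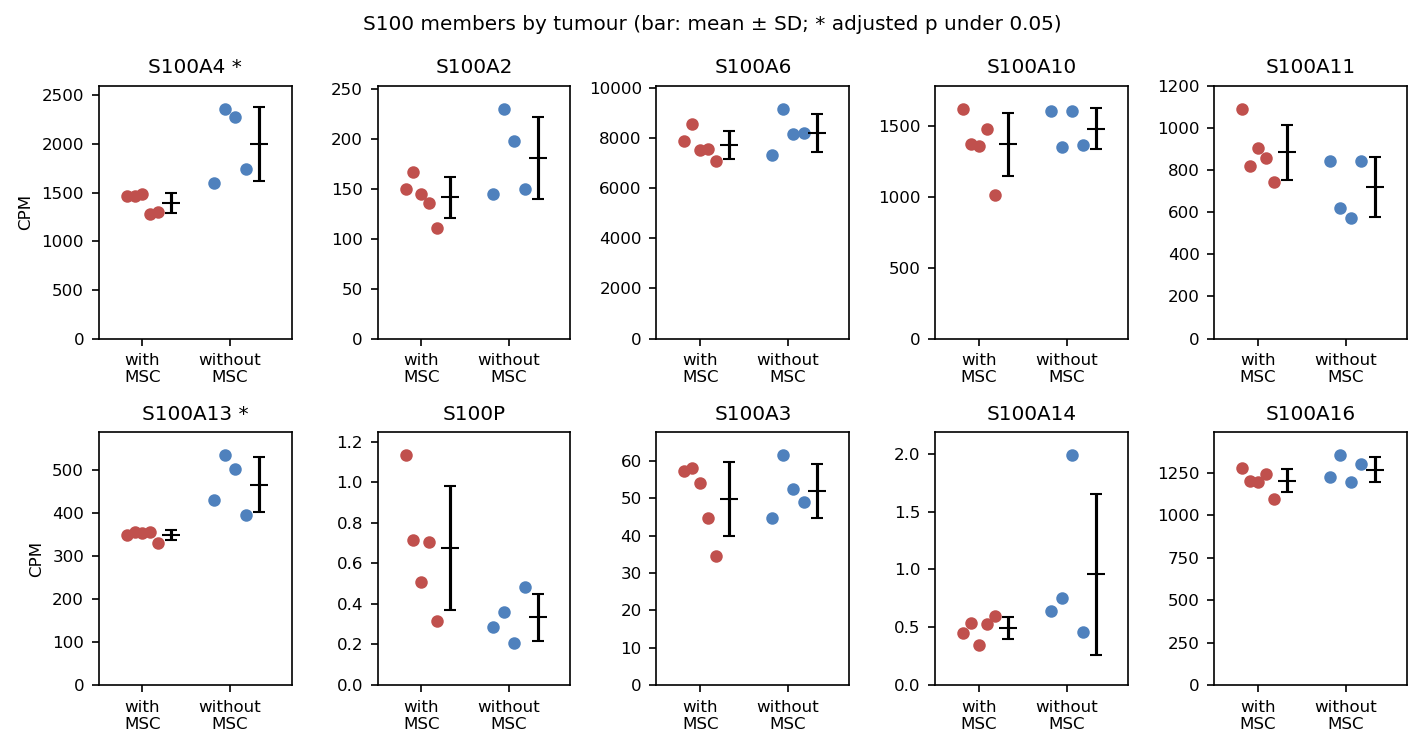
CPM of each S100 member in every tumour (points), with the mean and SD of each group, tumours with MSC left of tumours without; every vertical axis starts at 0 and has its own scale. S100A4 and S100A13 separate the groups, with S100A4 at 1276 to 1481 CPM with MSC and 1598 to 2359 CPM without, while the other members overlap.

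S100A2 binds p53 and is known as an epithelial member that is often lost in breast tumours. It had 149.9, 167, 145, 136 and 111 CPM in tumours 1, 6, 7, 10 and 15 with MSC, against 145, 230.1, 198 and 149.5 CPM in tumours 9, 11, 12 and 13 without. Tumours 11 and 12 were the highest, and tumours 9 and 13 lay within the range of the tumours with MSC. S100A2 averaged 142 ± 20.6 CPM with MSC (SD, n = 5) and 181 ± 41.0 CPM without (SD, n = 4), a log2 fold change of -0.35 ± 0.14 (SE). Its adjusted p of 0.117 missed the threshold in edgeR's quasi-likelihood test with Benjamini-Hochberg adjustment, and without tumour 13 it passed (log2 fold change -0.43, adjusted p = 0.0487).

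S100A14 is another epithelial member, known to bind p53. It had 15 to 48 counts per library, or 0.448, 0.538, 0.347, 0.524 and 0.5996 CPM in tumours 1, 6, 7, 10 and 15 with MSC, against 0.638, 0.752, 1.99 and 0.459 CPM in tumours 9, 11, 12 and 13 without. Tumour 12 stood apart at the top, and tumour 13 without MSC lay among the tumours with MSC. The log2 fold change of -0.94 ± 0.55 (SE) had an adjusted p of 0.306 in edgeR's quasi-likelihood test with Benjamini-Hochberg adjustment, and without tumour 12 it was -0.33.

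S100A16 is a widely expressed member, and S100A3 is best known from the hair cuticle. S100A16 had 1277, 1203, 1196, 1241 and 1097 CPM in tumours 1, 6, 7, 10 and 15 with MSC, against 1227, 1353, 1194 and 1304 CPM in tumours 9, 11, 12 and 13 without. S100A3 had 57.4, 58.1, 54.1, 44.7 and 34.6 CPM in those tumours with MSC, against 44.7, 61.5, 52.5 and 49.0 CPM without. The groups overlapped for both genes, and tumour 15 was the lowest in CPM for each, where its TMM scaling factor of 1.135 lowers its values. For S100A16 the log2 fold change was -0.078 ± 0.11 (SE), with an adjusted p of 0.705 in edgeR's quasi-likelihood test with Benjamini-Hochberg adjustment. For S100A3 it was -0.060 ± 0.14 (SE), with an adjusted p of 0.833 in the same test.

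S100P, first found in placenta, is secreted by some carcinomas as a ligand of RAGE and binds ezrin inside the cell. It is the only member here outside chromosome 1, on chromosome 4. It had 1.13, 0.717, 0.509, 0.705 and 0.314 CPM in tumours 1, 6, 7, 10 and 15 with MSC, against 0.289, 0.360, 0.207 and 0.482 CPM in tumours 9, 11, 12 and 13 without. Of the tumours with MSC, only tumour 15 lay within the range of those without. These levels rest on 5 to 43 counts per library, and the lowest count of 5 has an exact Poisson 95% interval of 1.62 to 11.7, for counting error only. The log2 fold change of 0.99 ± 0.58 (SE) had an adjusted p of 0.306 in edgeR's quasi-likelihood test with Benjamini-Hochberg adjustment.

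**Figure D4:**
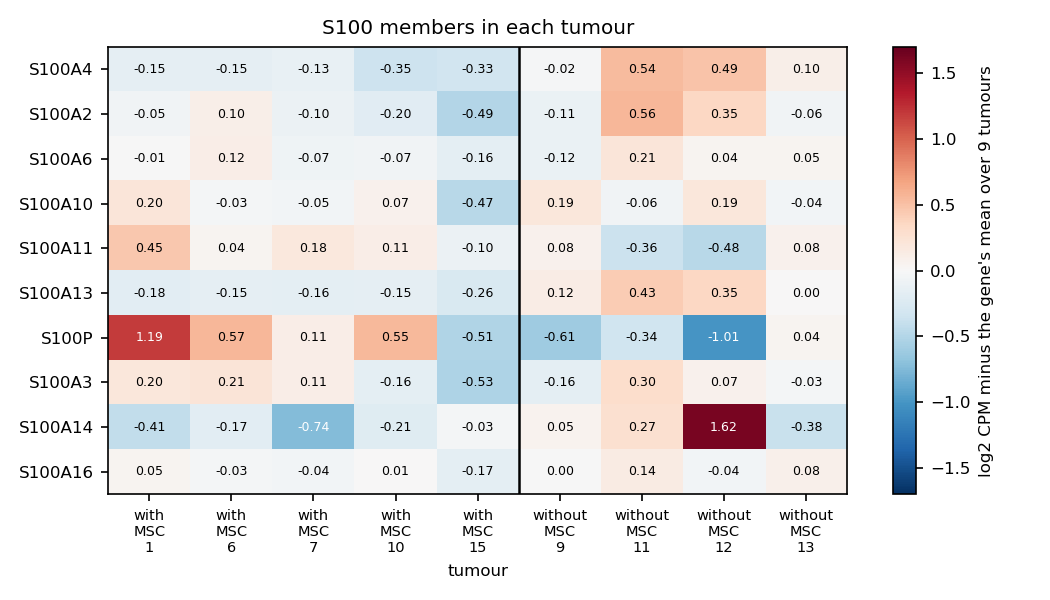
Log2 CPM of each S100 member (lines) in each tumour (columns), less the mean of that gene over the 9 tumours; tumours with MSC are left of the black line and tumours without MSC right of it. Tumours 11 and 12 are above the mean for S100A4, S100A13 and S100A2 and below it for S100A11, and the colour scale spans -1.7 to 1.7.

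Levels between genes were compared per kilobase of transcript, as mean CPM per kilobase. S100A6 led with 11560 ± 825 CPM per kilobase with MSC and 12270 ± 1133 without (SD). S100A4 followed with 2450 ± 177 CPM per kilobase with MSC and 3504 ± 669 without. With MSC, S100A10 at 1506 ± 246 and S100A11 at 1490 ± 219 CPM per kilobase did not differ beyond their spread, and S100A16 came next at 1160 ± 65.1. Without MSC, S100A10 was at 1629 ± 157, while S100A16 at 1225 ± 69.7 and S100A11 at 1212 ± 241 CPM per kilobase did not differ beyond their spread. Below them came S100A13 at 619 ± 19.1 CPM per kilobase with MSC and 826 ± 113 without, S100A2 at 226 ± 32.9 with MSC and 288 ± 65.4 without, and S100A3 at 69.4 ± 13.9 with MSC and 72.4 ± 9.94 without. S100A14 and S100P were under 1 CPM per kilobase in both groups. Together the members took 1.27 to 1.35% of gene counts with MSC and 1.33 to 1.52% without.

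Of 19 further genes of the S100 family and its relatives, 4 were tested and 0 were called in edgeR's quasi-likelihood test with Benjamini-Hochberg adjustment, with 0 at an unadjusted p under 0.05 and 0 by DESeq2 or limma-voom. Over all genes tested, 7.78% were called by edgeR. S100PBP, which encodes a binding protein of S100P, averaged 20.98 ± 1.93 CPM with MSC (SD, n = 5) and 21.05 ± 4.08 CPM without (SD, n = 4). S100A5, which overlaps S100A4, averaged 4.23 ± 0.78 CPM with MSC and 5.32 ± 1.33 CPM without. S100A8 and S100A9, the calprotectin subunits of neutrophils, had 1 count in tumour 7 and 5 counts in tumour 15, both with MSC, and 0 in every tumour without MSC. S100A7, or psoriasin, had 0 counts in all 9 libraries, which allows up to 0.00839 CPM over their 357412353 gene counts. S100A1, best known from heart muscle, averaged 0.499 ± 0.279 CPM with MSC (SD, n = 5) and 0.461 ± 0.219 CPM without (SD, n = 4), and its log2 fold change of 0.14 ± 0.62 (SE) had an adjusted p of 0.918 in edgeR's quasi-likelihood test with Benjamini-Hochberg adjustment.

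Among 24 partners and receptors of S100 proteins, 21 were tested, 5 rose and 0 fell, beside 4.18% of all genes tested that rose and 3.60% that fell; 1 was lower at an unadjusted p under 0.05, and DESeq2 and limma-voom called 0 lower. Their median log2 fold change was 0.20, beside 0.0085 over all genes. The gene lists, like the members, were chosen with results of these data known, so these counts are a description. PLAT, the tissue plasminogen activator, had 75.6, 85.9, 67.3, 76.6 and 88.9 CPM in tumours 1, 6, 7, 10 and 15 with MSC, against 40.1, 38.7, 33.7 and 57.8 CPM in tumours 9, 11, 12 and 13 without. All tumours with MSC were above all without, and tumour 13 was the highest of those without. Its log2 fold change was 0.89 ± 0.14 (SE), with an adjusted p of 0.00164 in edgeR's quasi-likelihood test with Benjamini-Hochberg adjustment. BSG, or basigin, a membrane protein that binds S100A9, averaged 397 ± 20.4 CPM with MSC (SD, n = 5) and 246 ± 73.4 CPM without (SD, n = 4), and NUCB1, a calcium-binding protein of the Golgi, averaged 116 ± 15.3 CPM with MSC and 73.8 ± 14.8 CPM without. CD44, the hyaluronan receptor, averaged 497 ± 75.1 CPM with MSC and 327 ± 49.1 CPM without. In the same test the log2 fold change was 0.69 ± 0.14 for BSG (adjusted p = 0.00768), 0.65 ± 0.13 for NUCB1 (adjusted p = 0.00699) and 0.61 ± 0.13 for CD44 (adjusted p = 0.00865); the CD44 call was lost without tumour 12 (adjusted p = 0.0547).

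CTSB, the lysosomal protease cathepsin B, averaged 184 ± 12.2 CPM with MSC (SD, n = 5) and 142 ± 23.4 CPM without (SD, n = 4), with groups that overlapped. Its log2 fold change of 0.37 ± 0.11 (SE) had an adjusted p of 0.0480 in edgeR's quasi-likelihood test with Benjamini-Hochberg adjustment. That call was kept without tumour 13 (adjusted p = 0.00839) or 15 (0.0476) and lost on leaving out any of the other 7 tumours, up to an adjusted p of 0.152 without tumour 12. AHNAK, a large scaffold that binds S100A10 with annexin A2, averaged 214 ± 50.9 CPM with MSC and 205 ± 34.0 CPM without, a log2 fold change of 0.062 ± 0.15 (adjusted p = 0.839 in the same test). AGER, which encodes RAGE, averaged 0.796 ± 0.321 CPM with MSC and 0.699 ± 0.634 CPM without, with 0 counts in tumour 12; its log2 fold change was 0.17 ± 0.68 (adjusted p = 0.903 in the same test).

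Of 14 annexins, 10 were tested and 0 were called in edgeR's quasi-likelihood test with Benjamini-Hochberg adjustment, beside 7.78% of all genes tested. At an unadjusted p under 0.05, 2 were higher and 2 lower; DESeq2 called 1 higher and 0 lower, and limma-voom 0. The 1 annexin with a large difference, named after its values were seen, was ANXA8L2, at 0.502 to 2.77 CPM with MSC and 0 to 0.643 CPM without, with an adjusted p of 0.0649 in edgeR's quasi-likelihood test. It has near-identical copies, ANXA8 and ANXA8L1, both at 0 counts in every library, so its counts are uncertain.

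Among 26 other EF-hand calcium sensors, 22 were tested, 2 rose and 2 fell, beside 4.18% of all genes tested that rose and 3.60% that fell. CALU (calumenin), a calcium-binding protein of the secretory pathway, averaged 134 ± 9.41 CPM with MSC (SD, n = 5) and 84.2 ± 21.9 CPM without (SD, n = 4), and SDF4, or Cab45, of the Golgi, averaged 80.97 ± 6.39 CPM with MSC and 52.4 ± 13.99 CPM without. VSNL1 (visinin-like 1), a neuronal calcium sensor, was at 4.48 ± 0.82 CPM with MSC and 10.3 ± 4.93 CPM without, and GCA, or grancalcin, at 18.4 ± 1.22 CPM with MSC and 25.9 ± 5.34 CPM without. In edgeR's quasi-likelihood test with Benjamini-Hochberg adjustment, the adjusted p was 0.00664 for CALU (log2 fold change 0.67 ± 0.13), 0.0107 for SDF4 (0.63 ± 0.14), 0.00762 for VSNL1 (-1.20 ± 0.24) and 0.0366 for GCA (-0.49 ± 0.14). The SDF4 call was lost without tumour 9 (adjusted p = 0.0511) or 12 (0.0545), and the GCA call was kept only without tumour 13 (0.00344), with adjusted p up to 0.133 when another tumour was left out.

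Among 16 genes near the S100 cluster on chromosome 1, 13 were tested, 1 rose and 0 fell, counts near the shares of all genes tested, of which 4.18% rose and 3.60% fell. At an unadjusted p under 0.05, 2 were lower, and DESeq2 and limma-voom called 0 lower. SLC39A1, a zinc importer, averaged 169 ± 12.7 CPM with MSC (SD, n = 5) and 123 ± 24.7 CPM without (SD, n = 4), a log2 fold change of 0.46 ± 0.12 (SE; adjusted p = 0.0271 in edgeR's quasi-likelihood test with Benjamini-Hochberg adjustment). That call was lost without tumour 1 (adjusted p = 0.0702), 6 (0.0608), 9 (0.0947), 10 (0.0647) or 12 (0.126).

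**Figure D5:**
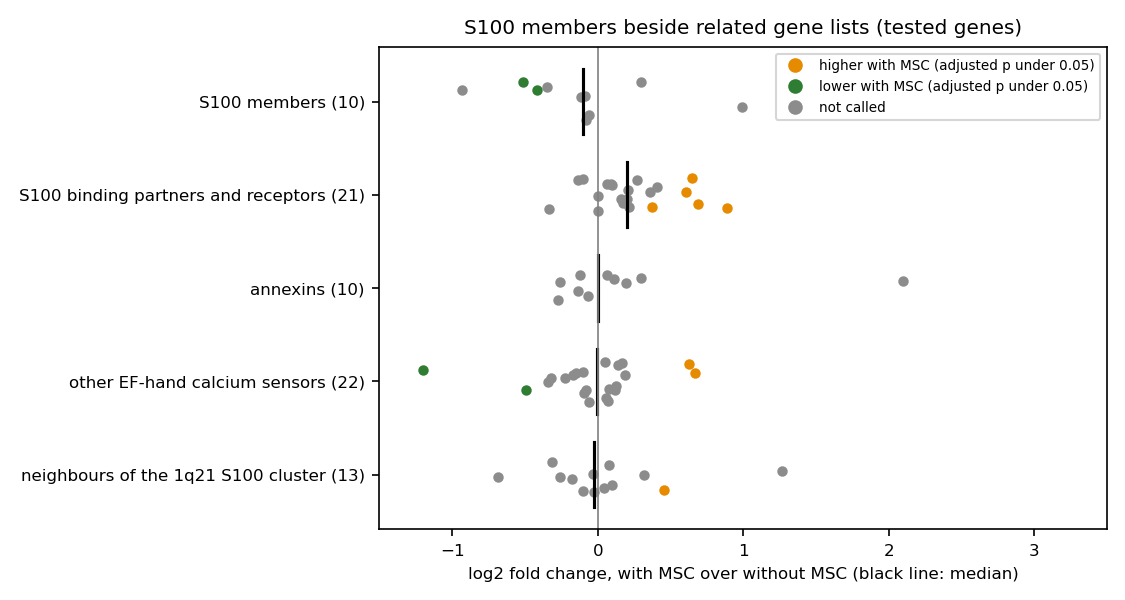
Log2 fold change, with MSC over without MSC (horizontal axis), of the tested genes of the S100 members and of related gene lists, with the median of each list as a black line and called genes in colour. The members' median is -0.10 and that of the partners and receptors 0.20. Called genes are 2 of 10 members, 5 of 21 partners and receptors, 0 of 10 annexins and 1 of 13 neighbours. Of 22 EF-hand sensors, 2 are higher and 2 lower. Over all genes tested, 7.78% were called.

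Genes whose pattern over the 9 tumours was closest to each called member were found by the root mean square difference of log2 CPM after subtracting the mean of each gene, among 9787 tested genes with a mean of at least 5 CPM. For S100A4 they were TRAPPC2L at 0.0743, MAGED1 at 0.0937 and AP1B1 at 0.0993, where the median of all candidates was 0.355. For S100A13 they were PARL at 0.0761, CYP2R1 at 0.0786 and GABARAP at 0.0827, where the median was 0.296. These genes were picked as the smallest of 9787 distances, so values far below the median follow from the selection. TRAPPC2L had 75.6, 83.3, 83.7, 71.0 and 66.1 CPM in tumours 1, 6, 7, 10 and 15 with MSC, against 79.1, 117, 117.5 and 89.1 CPM in tumours 9, 11, 12 and 13 without. As for S100A4, to whose pattern it was matched, its highest values were in tumours 11 and 12. Unlike those of S100A4, its groups overlapped, with tumour 9 within the range of the tumours with MSC.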

How the data were processed

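The members and gene lists were chosen with earlier results of these data known. The authors deposited whole-number read counts per gene symbol for 9 libraries, not normalized, made with a TruSeq RNA kit per the labels' protocols. Per the submitters' processing notes, the tools were TopHat 1.4.0, HTSeq and CASAVA 1.8.1, on hg19; annotation, strand use and treatment of mouse reads: not given in the sources used here. Counts of no gene, 10.2 to 12.1% of a library, were left out.

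The main test was that of edgeR 4.0.16, run under R 4.3.3 (filterByExpr, TMM factors, robust quasi-likelihood fit, adjusted p threshold 0.05), tested on simulated data, with CPM on TMM-scaled totals. Labels name no batch or pairing. No libraries agreed within sampling noise (smallest chi-square per degree of freedom within a group 23.2). Alternatives were other normalizations and filters, DESeq2 1.42.0, limma-voom 3.58.1, non-robust fitting, a threshold of 0.10, thinning, a GC and length correction (GENCODE 29, 95.9% of genes matched), and leaving out libraries. Of each list, called genes were named, up to 6 by smallest p, with ANXA2, AHNAK, AGER, S100A8, S100A9, S100A1 and S100A7, and for 2 members the 3 nearest patterns.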

Additional observations from a re-analysis of the deposited data

Results flagged for a closer look

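In 4 of the 72 group values looked at, 1 tumour lay far from the rest of its group, where chance alone gives about 1 in 20. S100A13 in tumour 15 with MSC was 329.6 CPM, against 349 to 356 CPM in the other tumours with MSC. This low value depends on the TMM scaling factor of tumour 15, 1.135, the highest of the 9 libraries. Per 1000 S100A6 reads, tumour 15 had 46.5 S100A13 reads, within the 41.4 to 46.9 of the other tumours with MSC. BSG in tumour 13 without MSC was 355 CPM, against 197 to 224 CPM in the other tumours without MSC. SDF4 in tumour 7 with MSC was 69.8 CPM, against 81.6 to 85.5 CPM in the others with MSC. SLC39A1 in tumour 7 with MSC was 147 CPM, against 169 to 178 CPM in the others with MSC.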

How the results depend on the processing

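No paired analysis was possible because the groups share no replicate numbers. S100A4 and S100A13 were lower with MSC in all 9 fits without 1 tumour and in all 12 other alternatives. Among those 12, both calls were lost only without tumours 15 and 12 together (0 members lower; S100A4 -0.42, adjusted p = 0.0693; S100A13 -0.36, adjusted p = 0.0965; edgeR), a pair singled out by an earlier analysis. Over all genes, 563 rose and 484 fell. Leaving out 1 tumour gave 0 to 3 members lower, 151 to 985 genes higher and 94 to 863 lower, 0 to 1 annexin higher, 3 to 6 partners higher and 0 to 1 lower, 1 to 2 EF-hand sensors higher and 1 to 3 lower, and 0 to 1 neighbour higher and 0 to 1 lower. DESeq2 gave 857 genes higher and 777 lower and 1 annexin higher, limma-voom 289 genes lower and 1 EF-hand sensor lower, and no filter 1 annexin higher. The threshold of 0.10 gave 956 genes higher, 888 lower, 1 annexin higher, 1 partner lower, 4 EF-hand sensors lower and 1 neighbour lower. The GC and length correction gave 301 genes higher, 1 partner lower, 1 EF-hand sensor higher, 1 lower and 0 neighbours higher, and the share of calls that were lower was 60.8%, against 46.2% without it. With this correction the members' median log2 fold change was -0.235, beside -0.052 over all genes tested. The members' median was -0.10 in the main fit and -0.148 to -0.055 in the other alternatives. Without tumours 15 and 12, 201 genes were higher and 101 lower, 1 EF-hand sensor higher, 0 lower and 0 neighbours higher. The CTSB call was lost in 6 of the 12, also with DESeq2's size factors (adjusted p = 0.0542), fitting without the robust option (0.0547), no scaling factors (0.0538), and limma-voom (0.0506), which likewise ended that of GCA (0.0754). By edgeR's adjusted p, the correction ended the calls of CTSB (0.234), SDF4 (0.0519), GCA (0.0765) and SLC39A1 (0.114), and leaving out both tumours ended those of CTSB (0.109), SDF4 (0.0655), GCA (0.192), SLC39A1 (0.147) and VSNL1 (0.0517). The cause of these differences was not tested. Uncalled values changed sign in places. Without tumours 15 and 12 the log2 fold change was 0.047 for S100A3, 0.014 for S100A10, 0.032 for ANXA2 and -0.39 for AGER, and with the GC and length correction -0.13 for AHNAK and -0.054 for S100A1. Leaving out 1 tumour gave -0.13 to 0.042 for S100A3, -0.053 to 0.14 for AHNAK, -0.22 to 0.85 for AGER, -0.23 to 0.29 for S100A1 and -0.16 to 0.026 for the S100A10 to ANXA2 ratio. S100A14 and S100P, at 5 to 48 counts, have wide errors.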
